A study of Macaca mulatta with 16 samples.

Results

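Collagens are the triple-helical proteins of the extracellular matrix, and the genes described here are all genes on the human array types U133A and U133B whose symbol has the form COL, number, A, number. The symbols of the platform annotation gave 106 probe sets of 42 genes, 73 on U133A and 33 on U133B, out of 44928 probe sets on both array types and 17518 genes that have a probe set of their own. On U133A 32 of the genes were represented and on U133B 18, of which 8 were on both. None of the 106 probe sets carried several symbols. A probe set is a group of short human oligonucleotides whose signals are summarised as 1 intensity per array, and its brightness depends on its own sequence, so that the level of one probe set was never set against that of another gene.

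The samples were 16 arrays of RNA from the extraocular muscles, which move the eye, of adult rhesus macaques (Macaca mulatta). In 2 groups the orbital layer, on the outer side facing the bone, and the global layer, next to the globe, were cut out with a laser, and their RNA was amplified with T7 polymerase before the standard protocol. In the other 2 groups, whole lateral rectus and whole medial rectus, the labels name only the standard protocol. Each group was hybridised to 2 arrays of each type, so n = 2 for a group and n = 4 for the layers or the whole muscles on each array type. No treatment, sex or genotype was given in the labels, and nothing there says which arrays share an animal. P-values therefore measure only the spread between these arrays. Where arrays on the same side of a comparison share an animal, p-values may be too small. Where arrays on opposite sides share an animal, such as an orbital and a global array, p-values may be too large. Microdissection, amplification and the difference between layer and whole muscle go together in these groups and cannot be told apart.

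Fibrillar collagens (types I, II, III, V, XI, XXIV and XXVII) form the fibres of tendon and of the connective tissue sheaths of muscle, and type IV collagen forms the sheet of the basement membrane around each muscle fibre and capillary. Type VI collagen forms beaded filaments between these structures, FACITs (fibril-associated collagens with interrupted triple helices) coat the surface of fibrils, and the remaining genes encode short chain, transmembrane, multiplexin and anchoring fibril collagens. Type I, IV and VI collagens are heterotrimers of chains from different genes, whereas type III is built from 1 kind of chain. In extraocular muscle, collagen also makes up the connective tissue pulleys to which orbital layer fibres attach.

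By class the members were 11 fibrillar genes with 31 probe sets, 6 basement membrane genes with 19, 4 beaded filament genes with 13, 10 FACIT genes with 21, 3 short chain genes with 7, 3 transmembrane genes with 6, 2 multiplexin genes with 3, 1 anchoring fibril gene with 2 and 2 other genes with 4. A probe set was tested in a comparison when its mean log2 intensity over the arrays compared reached the median of its table, which was 653.942 units on U133A and 802.702 on U133B. By this filter 60 probe sets of 33 genes were tested in at least 1 comparison, and 46 probe sets were tested in none. The 9 genes without a tested probe set were COL2A1, COL7A1, COL9A1, COL9A3, COL10A1, COL13A1, COL18A1, COL19A1 and COL26A1. COL2A1, the main fibrillar collagen of cartilage, lay between 35.5 and 717 units over its 2 probe sets and all arrays, and 5 of these 16 values were at or under the floor of 146.487 (U133A) or 218.465 (U133B) below which intensities were not distinguished. COL18A1, a multiplexin of vascular basement membranes and the source of endostatin, lay between 63.3 and 789 units with 8 of 16 values at or under the floor, and COL13A1, a transmembrane collagen of the neuromuscular junction, lay between 47.0 and 890 units with 5 of 24. COL7A1, the anchoring fibril collagen of skin, reached 1393 units and COL26A1 reached 1769 units on their brightest arrays, but their means stayed below the filter.

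On U133A the array titled as orbital layer replicate 1 has a source name that reads global layer. On U133B the source name of the array titled as global layer replicate 1 says layers with no further word. Arrays were grouped by title. Results without these arrays are given for the counts of collagen calls and for some probe sets only. Other differences of single probe sets that rest on these arrays are given only with them included. For ACTB the intensity of the 3' probe set over that of the 5' probe set, a measure of how far labelled RNA extends from its 3' end, was 5.30 to 5.87 on orbital, 2.84 to 2.88 on global and 0.716 to 1.04 on whole muscle arrays of U133A. On U133B these ranges were 4.43 to 5.29, 3.54 to 3.61 and 0.512 to 0.933. That ratio for GAPDH overlapped between the layers on both types. Of the markers of skeletal muscle, 5 of 5 were tested on U133A, and their summed intensity was 345767 to 414200 in the layers and 452260 to 558761 in whole muscle. Since these are bulk samples, fewer cells of a type and less RNA per cell cannot be told apart in any of the values below.

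The question of the study design with the closest match of samples is how the orbital and the global layer differ. No collagen passed the threshold (limma, Benjamini-Hochberg adjusted p under 0.05 over the table): 0 of 33 tested probe sets on U133A, where 0.409% of all 9532 tested probe sets passed, and 0 of 19 on U133B, where 0.021% of 9510 passed. At an unadjusted p under 0.05 there were 6 of 33 collagen probe sets on U133A, against 9.49% of all, and 2 of 19 on U133B, against 7.76% of all. The median log2 difference, orbital minus global, was 0.060 for the collagen probe sets and -0.037 for all probe sets on U133A, and 0.15 and 0.035 on U133B. In 9 of 33 collagen probe sets both orbital arrays lay above both global arrays on U133A (18.5% of all) and in 7 both lay below (23.4% of all). On U133B the counts were 5 of 19 above (20.8% of all) and 0 of 19 below (17.8% of all). Without orbital replicate 1 of U133A, and without global replicate 1 of U133B, the number of collagen probe sets past the threshold was again 0.

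**Figure D1:**
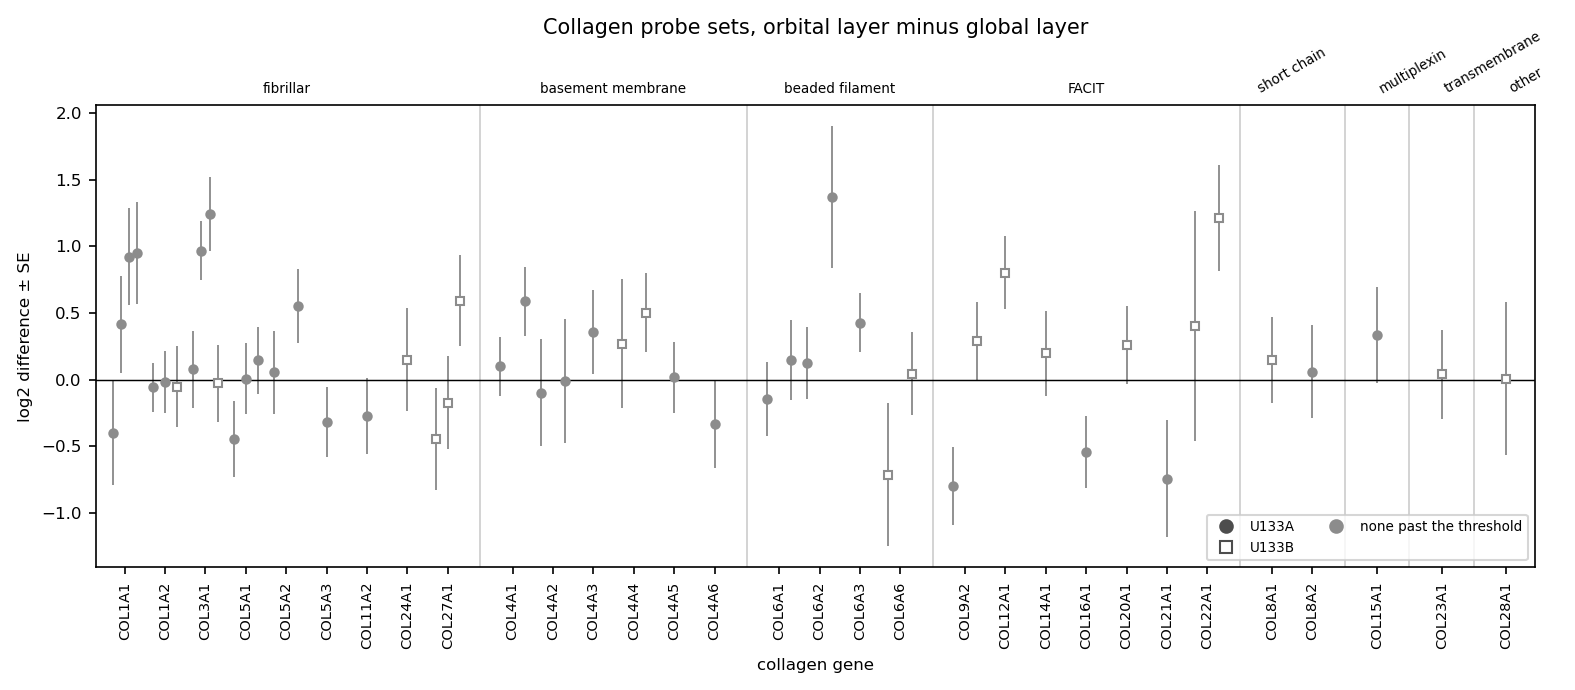
Each point is 1 tested collagen probe set, placed by gene and class, with its log2 difference orbital minus global layer on the vertical axis and the standard error as a bar (n = 2 arrays a group; circles U133A, squares U133B). All points are grey because none passed the threshold, and the differences run from -0.80 (COL9A2) to 1.37 (COL6A2).

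The comparison of the 4 layer arrays with the 4 whole muscle arrays gave many calls among collagens, as it did among all probe sets. On U133A 6 of 33 collagen probe sets were higher in the layers, where 18.6% of all 10533 tested probe sets were higher, and 12 of 33 were lower, where 30.1% of all were lower. On U133B 6 of 20 were higher (20.5% of all 10547) and 5 of 20 were lower (22.3% of all). The shares of collagens, 18.2% and 36.4% on U133A and 30% and 25% on U133B, are read against these backgrounds and not as a property of collagens. Their median log2 difference, layers minus whole muscle, was -0.23 on U133A, beside -0.18 for all probe sets, and 0.19 on U133B, beside -0.21 for all. Under quantile normalization the median of all probe sets moved to 0.0021 on U133A and to -0.036 on U133B, so the differences of this comparison are also given relative to the median of all probe sets of the table. Quantile normalization gave 5 higher and 10 lower collagen probe sets on U133A, and 6 higher and 2 lower on U133B in place of 6 and 5.

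The probe sets of 1 gene often differed. Of the 30 collagens tested against whole muscle, 15 had more than 1 tested probe set; 9 of these had differences of both signs, and 2 (COL6A2 and COL27A1) were called in both directions. In these 15 genes the gap between the highest and the lowest probe set of a gene had a median of 1.31 on the log2 scale. The same gap had a median of 0.68 over 14 genes for orbital minus global and of 0.34 over 16 genes for medial minus lateral. A gene-level direction against whole muscle is therefore given below only beside all its tested probe sets. Probe sets under the filter were not tested, and some read the other way. COL4A5 234387_at averaged 464 on orbital, 475 on global, 521 on lateral and 1304 on medial arrays, although the tested COL4A5 probe set was higher in the layers. COL20A1 232638_at averaged 381, 141, 480 and 963 on these groups, also against its tested probe set.

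**Figure D2:**
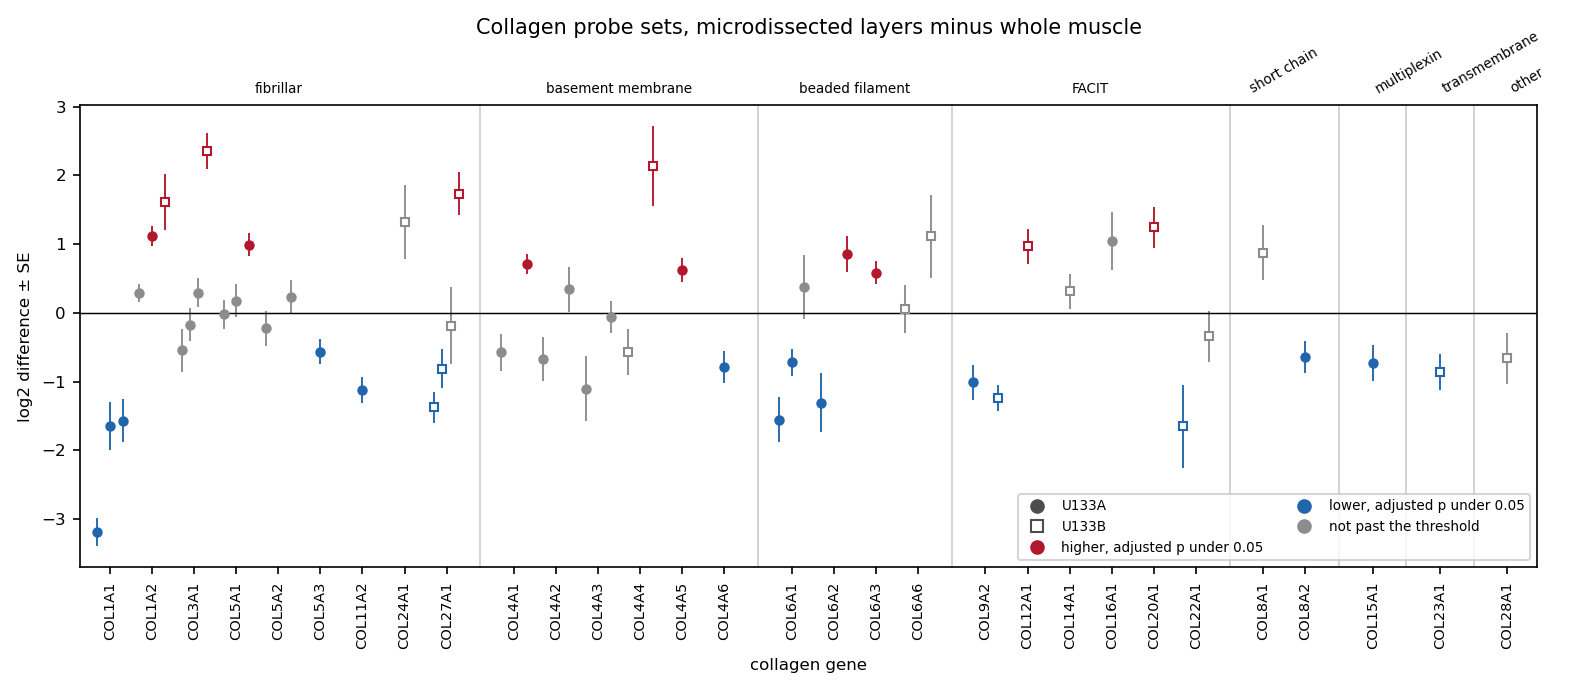
Each point is 1 tested collagen probe set, placed by gene and class, with its log2 difference layers minus whole muscle on the vertical axis and the standard error as a bar (n = 4 arrays a group; circles U133A, squares U133B). Red points were higher and blue points lower at adjusted p under 0.05; several genes, such as COL3A1, COL6A2 and COL27A1, have probe sets far apart, and the range runs from -3.19 (COL1A1) to 2.36 (COL3A1).

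Between the whole muscles no collagen was called: 0 of 37 tested probe sets on U133A and 0 of 20 on U133B passed in limma, and of all probe sets 0% (0 of 11907) and 0% (0 of 11836) passed. At an unadjusted p under 0.05 there were 2 of 37 on U133A, against 2.8% of all, and 0 of 20 on U133B, against 3.43% of all. The median log2 difference, medial minus lateral, was -0.040 for collagens and 0.0047 for all on U133A, and 0.029 and -0.026 on U133B. The comparisons share arrays: those of the layers also serve against whole muscle, and so do those of the muscles.

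The type I chains COL1A1 and COL1A2, which assemble into the main fibril of tendon and muscle sheaths, had their called probe sets in opposite directions against whole muscle. The brightest COL1A1 probe set, 202310_s_at, read 22195 and 13663 on the orbital arrays, 6639 and 12697 on the global arrays, 33426 and 55646 on the lateral rectus arrays and 33646 and 31413 on the medial rectus arrays. Every layer array lay below every whole muscle array, and the difference was -1.57 ± 0.31 (log2 ± SE, adjusted p = 0.00178; -1.39 relative to the median of all), a 2.96-fold lower level. The COL1A1 probe set 202311_s_at read 1922 and 1429.6 on orbital, 606 and 1215 on global, 2709 and 5029 on lateral and 5224 and 2723 on medial arrays, a difference of -1.65 ± 0.35 (adjusted p = 0.00264; -1.47 relative to all). COL1A1 217430_x_at, where the suffix _x_at marks a probe set that can match other transcripts, had the lowest log2 difference of any collagen probe set. Its intensities were 748 and 899.9 in the orbital layer and 523 and 724 in the global layer, against 6414 and 7797 in lateral and 5853 and 6013 in medial rectus, 9.12-fold lower in the layers (-3.19 ± 0.20, adjusted p = 3.97e-06; -3.01 relative to all). The calls of these 3 probe sets held in every alternative run, each array left out in turn included. The fourth, 202312_s_at, was tested only between the layers and differed there by -0.40 ± 0.39 (adjusted p = 0.77). Its means were 668 on orbital, 903 on global, 294 on lateral and 981 on medial arrays.

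COL1A2 encodes the partner chain. Its brightest probe set, 202403_s_at, read 66793 and 70324 on orbital, 76923 and 66321 on global, 50689.7 and 67134 on lateral and 52179.9 and 61191 on medial arrays, which overlap, and its difference of 0.29 ± 0.13 against whole muscle did not pass (adjusted p = 0.0956). By contrast, 202404_s_at was 2.17-fold higher in the layers, with 12176 and 10302 (orbital) and 12309 and 10453 (global) against 4755 and 5551 on lateral and 5444 and 5076 on medial arrays (1.12 ± 0.15, adjusted p = 1.65e-04; 1.30 relative to all). On U133B 229218_at was 3.07-fold higher, with 4186 and 3282 (orbital) and 3326 and 4448 (global) in the layers against 2197 and 741 in lateral and 2164 and 651 in medial rectus (1.62 ± 0.41, adjusted p = 0.00766; 1.83 relative to all). For these 2 probe sets the groups did not overlap.

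Between the layers, neither type I chain was called. The log2 differences orbital minus global were 0.92 ± 0.36, 0.95 ± 0.39 and 0.42 ± 0.36 for the 3 COL1A1 probe sets in which both orbital arrays lay above both global arrays (adjusted p = 0.476, 0.49 and 0.74). For COL1A2 they were -0.06, -0.018 and, on U133B, -0.053. The medial minus lateral differences of the tested type I probe sets lay between -0.41 and 0.031.

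COL3A1 encodes type III collagen, which forms thin fibres together with type I in muscle sheaths and vessel walls, and it had the smallest p of any collagen between the layers. Its brightest probe set, 215076_s_at, read 70907 and 64753 on the orbital and 29243 and 41035 on the global arrays, with 52874 and 59428 on lateral and 50815 and 55611 on medial arrays. Both orbital arrays lay above all others and both global arrays below all others. Orbital minus global was 0.97 ± 0.22 (1.96-fold, adjusted p = 0.21), which missed the threshold. With 201852_x_at the values were 18147 and 15289 on orbital, 5634 and 8749 on global, 16452 and 19476 on lateral and 13088 and 14633 on medial arrays, and orbital minus global was 1.25 ± 0.28 (2.37-fold, adjusted p = 0.195). Here the global arrays were again the lowest, whereas the orbital arrays fell among those of whole muscle.

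The size of these COL3A1 differences depended on the arrays used. Without global replicate 2 they were 1.21 (215076_s_at) and 1.56 (201852_x_at). That array was the global array nearer to the orbital arrays on both probe sets, so its removal could only widen the differences. Without orbital replicate 1, the array with conflicting labels, they were 0.90 and 1.12. Each of these runs left 1 array in a layer, so no p-value is given for them. Over all alternatives the difference of 215076_s_at ranged from 0.72 to 1.21 and that of 201852_x_at from 0.93 to 1.56.

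The other probe sets of COL3A1 did not show this pattern. On 211161_s_at the layers overlapped, with 17878 and 31395 (orbital) and 24167 and 20899 (global) (0.076 ± 0.29, adjusted p = 0.955). On U133B 232458_at read 10009 and 6952 (orbital) and 7745 and 9329 (global) (-0.027 ± 0.29, adjusted p = 0.99). The same U133B probe set had the largest positive difference from whole muscle of any collagen, where it read 2137 and 1236 on lateral and 1250.05 and 2197 on medial arrays, 5.13-fold below the layers (2.36 ± 0.26, adjusted p = 4.88e-05; 2.57 relative to all). The U133A probe sets of the gene did not pass there, at -0.54, -0.17 and 0.30.

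**Figure D3:**
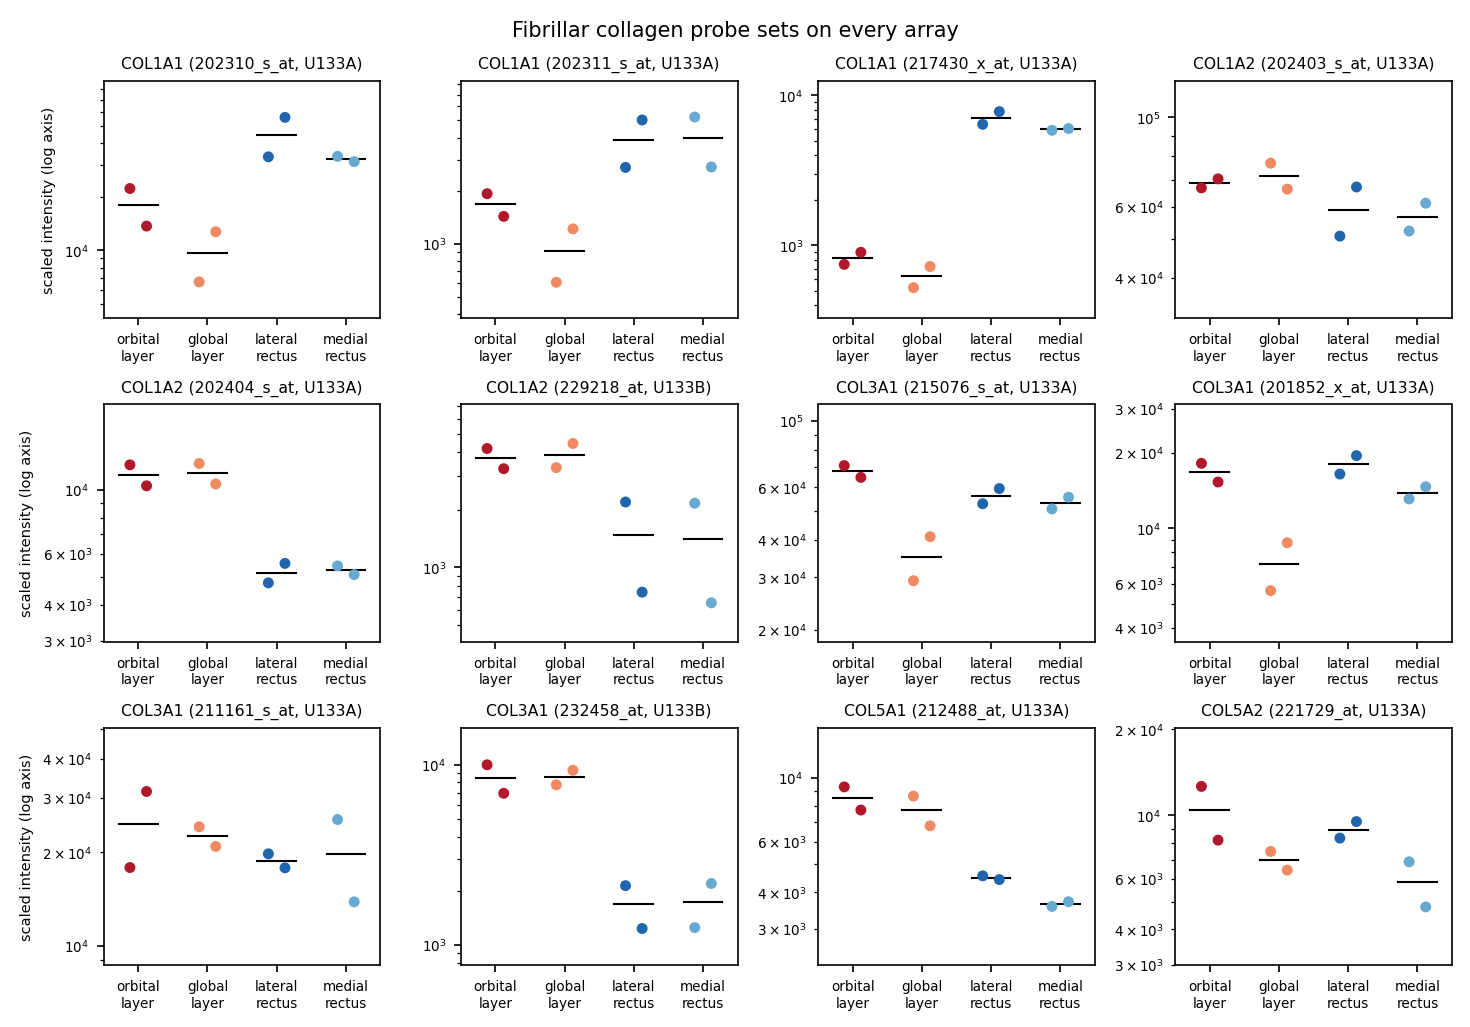
Scaled intensity (log axis, a separate scale for each panel) of 12 fibrillar collagen probe sets on every array; each point is 1 array, by group, and the line is the mean of the 2 arrays. COL1A1 217430_x_at is at 523 to 900 on the layer arrays and at 5853 to 7797 on the whole muscle arrays, whereas COL1A2 202404_s_at and COL3A1 232458_at are higher in the layers.

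Type V collagen sets the diameter of type I fibrils. COL5A1 212488_at was 1.99-fold higher in the layers, with 9288 and 7722 (orbital) and 8628 and 6806 (global) against 4567 and 4433 on lateral and 3578 and 3714 on medial arrays, without overlap (0.99 ± 0.17, adjusted p = 6.64e-04; 1.17 relative to all). The gene's other probe sets, 203325_s_at and 212489_at, differed by -0.021 and 0.18 and did not pass. COL5A3 52255_s_at went the other way, with 2442 and 2064 (orbital) and 3077 and 2549 (global) against 3812 and 3434 on lateral and 4255 and 3371 on medial arrays (-0.56 ± 0.18, adjusted p = 0.0213; -0.38 relative to all). Its call was lost without orbital replicate 2 (adjusted p = 0.0619) and without medial replicate 1 (adjusted p = 0.0615).

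COL5A2 was not called anywhere, and it had among the smallest p of collagens between the muscles. The brighter probe set 221729_at read 12631 and 8197 on orbital, 7487 and 6442 on global, 8334 and 9519.8 on lateral and 6888 and 4791 on medial arrays, and medial minus lateral was -0.63 ± 0.25 (adjusted p = 0.999). The probe set 221730_at read 2773 and 2076 on orbital, 2915 and 1835 on global, 3174 and 3732 on lateral and 1798 and 2699.6 on medial arrays (-0.64 ± 0.30, adjusted p = 0.999). In both, each medial array lay below each lateral array, while orbital minus global was 0.55 and 0.053. COL3A1 201852_x_at, whose values are given above, had both medial arrays below both lateral arrays as well (-0.37 ± 0.20, adjusted p = 0.999).

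The minor fibrillar collagens had fewer tested probe sets. COL11A2, a chain of the type XI collagen of cartilage, was 2.18-fold lower in the layers on 216993_s_at, with 1667 and 1181 (orbital) and 1616 and 1777 (global) against 3530.3 and 3184 on lateral and 2930.2 and 3868 on medial arrays (-1.12 ± 0.19, adjusted p = 7.27e-04; -0.94 relative to all), and the groups did not overlap. COL11A1 was tested only between the muscles (0.67, adjusted p = 0.999). COL24A1 238732_at, the probe set with the largest medial minus lateral difference, read 3389 and 516 on lateral and 2675 and 4513 on medial arrays, which overlap (1.39 ± 0.79, adjusted p = 0.991). In the layers it read 7488 and 4247 (orbital) and 6662 and 3883 (global), and its difference of 1.32 ± 0.54 from whole muscle did not pass (adjusted p = 0.0648).

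COL27A1 encodes a fibrillar collagen of cartilage and developing tissues, and its 4 tested U133B probe sets disagreed. The probe set 225293_at was 3.34-fold higher in the layers, with 5092 and 6497 (orbital) and 5374 and 11405 (global) against 1876 and 1851 on lateral and 3237 and 1457 on medial arrays (1.74 ± 0.31, adjusted p = 0.0011; 1.95 relative to all). In contrast, 230603_at was 2.59-fold lower, with 1394 and 1874 (orbital) and 1668 and 1999 (global) in the layers against 4571 and 4478 (lateral) and 4259 and 4488 (medial) in whole muscle (-1.37 ± 0.23, adjusted p = 6.09e-04; -1.16 relative to all). The layer and whole muscle arrays did not overlap in either. The next, 225292_at, read 2962 and 2917 on orbital, 2459 and 1544 on global, 5238 and 3232 on lateral and 5323 and 3442 on medial arrays, also lower in the layers (-0.81 ± 0.28, adjusted p = 0.035), and lost its call in 7 of 17 alternatives. Orbital minus global on it was 0.59 ± 0.34 (adjusted p = 0.735). The fourth, 225288_at, differed from whole muscle by -0.18 and did not pass.

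Among basement membrane collagens, COL4A1 and COL4A2 encode the common chains, which assemble together around muscle fibres and vessels. COL4A1 211980_at read 18764 and 22894 on orbital, 20072 and 18689 on global, 12199.7 and 13129 on lateral and 13181 and 10501 on medial arrays, 1.64-fold higher in the layers without overlap (0.72 ± 0.14, adjusted p = 0.00182; 0.90 relative to all). Under quantile normalization the difference was 0.14 (adjusted p = 0.469). The second COL4A1 probe set, 211981_at, read 3490.2 and 2749.7 on orbital, 2063 and 2058 on global, 5446 and 4346 on lateral and 3529 and 2377 on medial arrays and differed by -0.57 ± 0.27 from whole muscle, not called (adjusted p = 0.0957). It had the smallest p of any collagen between the muscles, with both medial arrays below both lateral arrays (-0.75 ± 0.28, adjusted p = 0.999), and both its orbital arrays lay above both global arrays (0.59 ± 0.26, adjusted p = 0.53).

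COL4A2 had no call. Its brighter probe set 211964_at read 2715 and 4394 on orbital, 5697 and 2122 on global, 6382 and 4912 on lateral and 7934 and 3735 on medial arrays, and replicates of the same group differed by as much as the groups did. The difference from whole muscle was -0.67 ± 0.32 (adjusted p = 0.098), and that of 211966_at was 0.34.

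The chains COL4A3 to COL4A6 make up basement membranes of kidney, lung, eye and some other tissues, COL4A5 also together with COL4A6 in smooth muscle. COL4A4 229779_at was 4.39-fold higher in the layers, with 4768 and 4479 (orbital) and 3796 and 2804 (global) against 1776 and 745 on lateral and 2112 and 132 on medial arrays (2.14 ± 0.58, adjusted p = 0.0111; 2.35 relative to all), and 1 medial array lay under the floor. The groups did not overlap, and without the filter on low values the adjusted p was 0.0587. Orbital minus global was 0.50 ± 0.29 (adjusted p = 0.737). The other COL4A4 probe set, 241565_at, differed from whole muscle by -0.57 and did not pass.

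COL4A5 213110_s_at was higher in the layers, with 3017 and 3414 (orbital) and 3704 and 2719 (global) against 1945 and 2432 on lateral and 1794 and 2168 on medial arrays (0.62 ± 0.18, adjusted p = 0.0134; 0.80 relative to all). COL4A6 213992_at was lower, with 658 and 845 (orbital) and 1021 and 867 (global) in the layers against 1285 and 1293 (lateral) and 1499 and 1741 (medial) in whole muscle (-0.78 ± 0.23, adjusted p = 0.0138; -0.61 relative to all), a call that quantile normalization removed (-0.28, adjusted p = 0.321). The groups overlapped in neither. The tested COL4A3 probe sets 216898_s_at and 222073_at differed by -1.10 and -0.059 and were not called.

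The chains of type VI collagen form the filaments that link muscle fibres to their surroundings, and their mutations cause congenital muscle weakness in humans. Against whole muscle 2 of 6 tested type VI probe sets on U133A were called higher and 3 lower. Of all probe sets there, 18.6% were called higher and 30.1% lower. On U133B 0 of 2 were called, where 20.5% of all were higher and 22.3% lower. COL6A1 213428_s_at read 5726 and 4439.5 on orbital, 5665 and 3654 on global, 8365 and 7356 on lateral and 9844 and 6388 on medial arrays, lower in the layers without overlap (-0.72 ± 0.20, adjusted p = 0.0106; -0.54 relative to all). COL6A1 212940_at was 2.93-fold lower, with 276 and 617 (orbital) and 442 and 364 (global) against 1229.97 and 966 on lateral and 1141 and 1493 on medial arrays (-1.55 ± 0.33, adjusted p = 0.00277; -1.37 relative to all), and its layer mean of 425 units lay under the filter level, so that it was tested only through its level in whole muscle. The remaining COL6A1 probe set, 212091_s_at, differed by 0.38 and was not called.

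COL6A3 201438_at went the other way, with 18779 and 20536 on orbital, 13325 and 15999.7 on global, 10749.5 and 10266 on lateral and 13826 and 10557 on medial arrays. It was 1.5-fold higher in the layers (0.59 ± 0.17, adjusted p = 0.0146; 0.77 relative to all), although medial replicate 1 lay above global replicate 1, and under quantile normalization the difference was 0.031 (adjusted p = 0.897). Both orbital arrays lay above both global arrays (0.43 ± 0.22, adjusted p = 0.588).

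COL6A2 was called in both directions. Its probe set 213290_at read 1339.8 and 1218 on orbital, 1120.3 and 1230.4 on global, 964 and 555 on lateral and 520.04 and 749.6 on medial arrays, higher in the layers without overlap (0.86 ± 0.27, adjusted p = 0.0191; 1.04 relative to all); without orbital replicate 1 the adjusted p was 0.0572. The brighter 209156_s_at read 1752 and 824 on orbital, 300.1 and 721 on global, 1632 and 2324 on lateral and 2159.6 and 1435 on medial arrays, lower in the layers (-1.31 ± 0.43, adjusted p = 0.0249; -1.13 relative to all). Its orbital replicate 1 lay within the whole muscle range, and the call was lost under 4 of 16 alternatives. Between the layers this probe set had the largest difference of any collagen, 1.37 ± 0.53, with both orbital arrays above both global arrays and without passing (adjusted p = 0.471); its global mean of 511 units lay under the filter level, while 213290_at differed by 0.12.

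COL6A6, a further type VI chain, was tested on U133B. The probe set 230867_at read 2292 and 2116 on orbital, 1972 and 2312 on global, 1064 and 2173 on lateral and 2181 and 3719 on medial arrays, and medial minus lateral was 0.91 ± 0.53 (adjusted p = 0.991). Against whole muscle its 2 probe sets differed by 0.059 and 1.11, and neither passed.

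**Figure D4:**
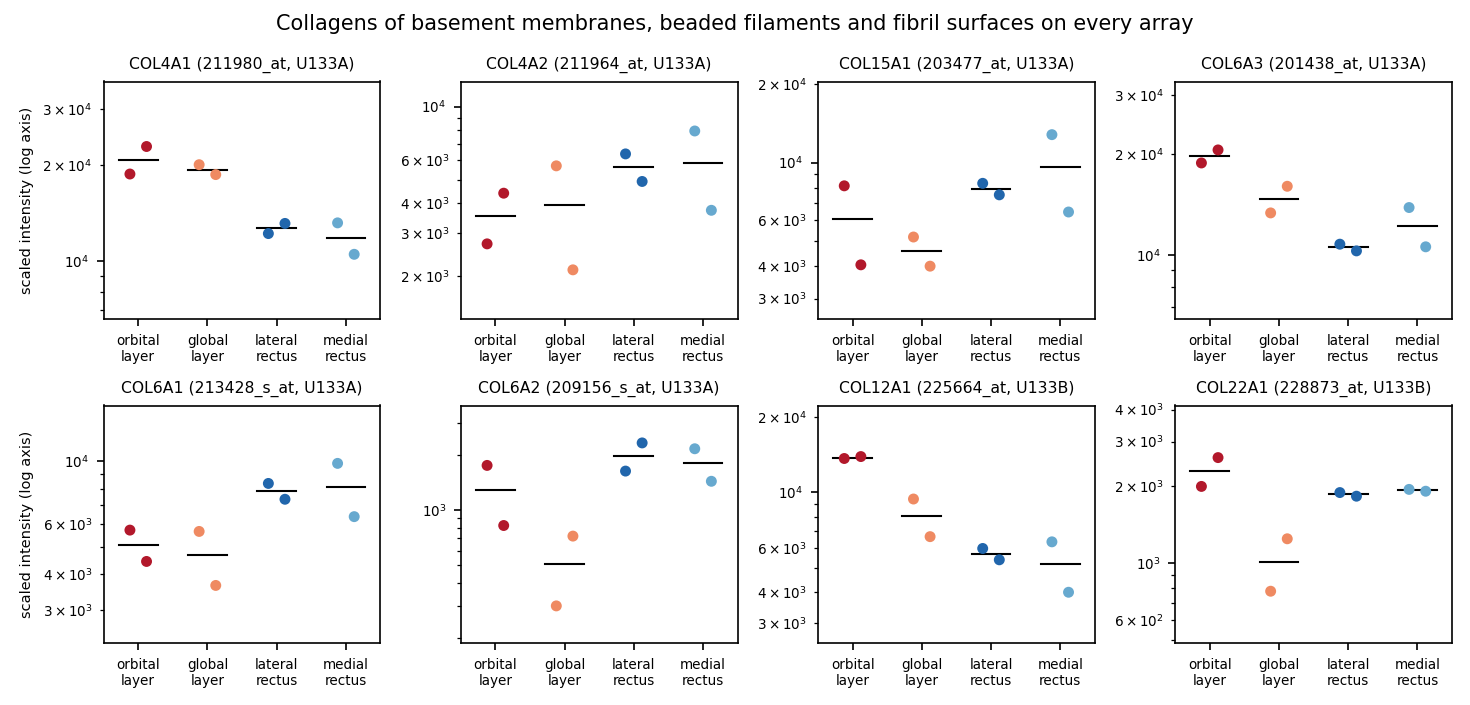
Scaled intensity (log axis, a separate scale for each panel) of 8 probe sets of basement membrane, multiplexin, beaded filament and FACIT collagens on every array; each point is 1 array, by group, and the line is the mean of the 2 arrays. The plotted probe sets COL4A1 211980_at, COL6A3 201438_at and COL12A1 225664_at were called higher in the layers and COL6A1 213428_s_at lower. For COL6A3, medial replicate 1 lay above global replicate 1. COL4A2 211964_at and COL15A1 203477_at spread widely within groups.

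FACIT collagens bind to the surface of fibrils. COL12A1, a type XII collagen of tendon and muscle sheaths, read 13645 and 13890.4 on orbital, 9397 and 6646 on global, 5961 and 5370.3 on lateral and 6336 and 3984 on medial arrays on 225664_at. It was 1.96-fold higher in the layers (0.97 ± 0.26, adjusted p = 0.0104; 1.18 relative to all), with no overlap, and quantile normalization removed the call (0.42, adjusted p = 0.258). Both orbital arrays lay above every other array, and orbital minus global was 0.80 ± 0.27 (adjusted p = 0.555). Of the untested COL12A1 probe sets, 234951_s_at averaged 395 on orbital, 657 on global, 1327 on lateral and 619 on medial arrays. On these groups 231766_s_at averaged 510, 370, 555 and 910. The others, 231879_at (702, 405, 466 and 644) and 233109_at (873, 392, 378 and 736), had their highest mean on orbital arrays. COL20A1 232733_s_at, for a less studied FACIT, was 2.37-fold higher in the layers, with 5292 and 4788 (orbital) and 4984 and 3550.4 (global) against 2376 and 1554 on lateral and 3045 and 1265 on medial arrays (1.24 ± 0.30, adjusted p = 0.00566; 1.46 relative to all). Its groups did not overlap.

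COL22A1 encodes the type XXII collagen known from the myotendinous junction, where muscle fibres meet tendon. On 228873_at the values were 2000.5 and 2595 on orbital, 777 and 1247 on global, 1893 and 1832 on lateral and 1948 and 1916 on medial arrays. Orbital arrays lay above those of whole muscle and global arrays below all others, and orbital minus global was 1.21 ± 0.40 (2.31-fold, adjusted p = 0.525), the smallest p of collagens on U133B without passing. The probe set 242326_at varied more between replicates, with 587 and 2551 on orbital, 455 and 1880.3 on global, 4394 and 4318 on lateral and 1129 and 5764 on medial arrays. It was called lower in the layers (-1.65 ± 0.61, adjusted p = 0.043) although the groups overlapped, and the call was lost in 10 alternatives. Medial minus lateral on it was -0.77 ± 0.65 (adjusted p = 0.991), which turned to 0.40 without medial replicate 1.

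COL9A2, a chain of the type IX collagen of cartilage, was the FACIT called on both array types. On U133A 213622_at read 749 and 887 (orbital) and 1541 and 1309 (global) against 1753 and 2283 on lateral and 2085 and 2613 on medial arrays (-1.01 ± 0.25, adjusted p = 0.00683; -0.83 relative to all). On U133B 232542_at read 3723 and 3683 (orbital) and 3427 and 2685 (global) in the layers against 8111 and 7184 (lateral) and 8019 and 8352 (medial) in whole muscle (-1.24 ± 0.19, adjusted p = 4.58e-04; -1.02 relative to all). Every layer array lay below every whole muscle array on both types. Between the layers their differences had opposite signs, with -0.80 ± 0.29 (adjusted p = 0.443) and 0.29 ± 0.29 (adjusted p = 0.837).

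The remaining FACITs had no call. COL14A1 228750_at, for a collagen of tendon and dermis, read 3150.5 and 2215 on orbital, 2260.1 and 2352 on global, 1983 and 2482 on lateral and 1766 and 1794 on medial arrays, and its medial minus lateral difference of -0.32 ± 0.45 did not pass (adjusted p = 0.991). On U133A COL14A1 216865_at read 409 and 249 on orbital, 321 and 302 on global, 1118 and 822 on lateral and 946 and 1414 on medial arrays. Every layer array lay below every whole muscle array, but the filter left it tested only between the muscles (0.27 ± 0.44, adjusted p = 0.999). Of its untested probe sets, 216866_s_at also read lower in the layers, under the floor, whereas 212865_s_at overlapped. COL16A1 204345_at differed from whole muscle by 1.05 ± 0.42 (adjusted p = 0.0563) and between the layers by -0.54 ± 0.27 (adjusted p = 0.575). COL21A1 208096_s_at was tested only between the layers (-0.75, adjusted p = 0.626).

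Of the other classes, COL15A1, a multiplexin in the basement membrane zone of muscle and capillaries, read 8139 and 4048 on orbital, 5176 and 3999.8 on global, 8321 and 7515 on lateral and 12797 and 6457 on medial arrays on 203477_at. It was called lower in the layers (-0.73 ± 0.26, adjusted p = 0.0371; -0.55 relative to all), with overlapping groups and with the call lost in 8 of 17 alternatives. COL8A2 52651_at, a short chain collagen of corneal and vascular matrix, read 1096 and 1234 on orbital, 1504 and 828 on global, 1503 and 1632 on lateral and 1894 and 2167 on medial arrays. It too was called lower (-0.64 ± 0.23, adjusted p = 0.0356; -0.47 relative to all), overlapped, and lost the call in 8 of 16 alternatives. COL8A1, its relative, differed by 0.88 ± 0.40 on 226237_at and was not called (adjusted p = 0.0929).

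COL23A1, a transmembrane collagen, was lower in the layers on 229168_at, with 1592 and 1764 (orbital) and 1622 and 1642 (global) against 3269 and 2873 on lateral and 2161 and 3952 on medial arrays (-0.86 ± 0.26, adjusted p = 0.0197; -0.64 relative to all). The groups did not overlap, and quantile normalization (adjusted p = 0.116) and leaving out medial replicate 2 (adjusted p = 0.0515) removed the call. COL25A1, a transmembrane collagen needed for motor nerves to enter muscle in mice, was tested only between the muscles (0.53, adjusted p = 0.991). COL28A1 242345_at was not called in any comparison, with differences of -0.66 from whole muscle, 0.004 between the layers and 0.16 between the muscles.

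Leaving out the array with conflicting labels, U133A orbital replicate 1, gave 5 higher and 12 lower collagen probe sets against whole muscle in place of 6 and 12, of which 16 were called with all arrays, and leaving out U133B global replicate 1 gave 6 higher and 3 lower in place of 6 and 5. Of the 29 collagen calls in this comparison, 16 held under every alternative in which they were tested and 13 were lost under at least 1. Of the 16, COL6A1 212940_at was tested in 13 alternatives, COL9A2 213622_at in 16 and the rest in 17. None of the 29 reversed.

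The genes that fold, cut, break down and bind collagen were followed through 3 lists, each gene by its brightest probe set. Between the layers none of their tested members was called on either array type: 0 of 14 for folding and processing, 0 of 5 for breakdown and 0 of 3 for receptors on U133A, and 0 of 5, 0 of 1 and 0 of 2 on U133B. Their median differences orbital minus global on U133A were 0.028, 0.50 and -0.13, beside -0.037 for all probe sets. Between the muscles none was called either.

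Against whole muscle, collagen folding and processing had 3 higher and 6 lower of 19 tested genes on U133A, where 18.6% of all probe sets were higher and 30.1% lower, with a median of -0.24 beside -0.18 for all probe sets. These shares of the list, 15.8% and 31.6%, lay near those of all probe sets. Higher were SERPINH1, the collagen chaperone HSP47 (2.07 ± 0.62, adjusted p = 0.0164), PPIB, a proline isomerase of the collagen folding complex (0.85 ± 0.25, adjusted p = 0.0136), and LOXL2, a crosslinking enzyme (0.66 ± 0.26, adjusted p = 0.0488). SERPINH1 averaged 4013 units on orbital, 1048 on global and 476 on whole muscle arrays. Its whole muscle mean lay under the filter level of 653.942 units, so that it was tested only through its level in the layers. Orbital minus global, not called, was 2.20 ± 0.55 for SERPINH1 (adjusted p = 0.253), 0.80 ± 0.25 for PPIB (adjusted p = 0.369) and -0.12 ± 0.35 for LOXL2 (adjusted p = 0.941). Lower were ADAMTS2, which removes the N-propeptide of procollagen (-2.04 ± 0.37, adjusted p = 0.00111), CRTAP, of the prolyl 3-hydroxylation complex (-1.69 ± 0.31, adjusted p = 0.00109), LOXL1 (-1.39), PLOD2, a lysyl hydroxylase (-1.04), COLGALT1 (-0.68) and PLOD3 (-0.47). The U133A layer means of ADAMTS2 (378 units) and CRTAP (384 units) lay under the filter level, so that both were tested only through whole muscle. The U133B probe set of ADAMTS2 read the other way, at 1989 ± 734 units in the layers and 321 ± 169 in whole muscle (SD, n = 4). Its mean log2 intensity stayed under the filter and it was not tested. On U133B 0 were higher (20.5% of all) and 2 lower (22.3% of all) of 3 tested, namely CRTAP (-1.89 ± 0.49, adjusted p = 0.00856) and LOXL4 (-1.0).

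Of the breakdown list 0 were higher (18.6% of all) and 4 lower (30.1% of all) of 7 on U133A, with a median of -0.74 beside -0.18 for all. These were the gelatinases MMP2 (-0.74) and MMP9 (-1.54), the membrane collagenase MMP14 (-1.87 ± 0.32, adjusted p = 8.28e-04) and the inhibitor TIMP1 (-0.67). The layer mean of MMP9, 531 units, lay under the filter level, so that it was tested only through whole muscle. On U133B the 1 tested gene, the inhibitor TIMP2, was higher (2.02 ± 0.21, adjusted p = 3.58e-05). The U133A probe set of TIMP2 read the other way, at 98 ± 15 units in the layers and 285 ± 104 in whole muscle (SD, n = 4). Its layer mean lay under the floor, and it was not tested. Of the receptor list 0 were higher and 2 lower of 4 on U133A, against the same shares of all probe sets, the integrin subunits ITGA2 (-1.48) and ITGA10 (-1.01), and on U133B DDR2 was higher (0.87) and ITGA11 lower (-1.57) of 2 tested. The layer mean of ITGA2, 560 units, lay under the filter level too, so that it was tested only through whole muscle. The untested U133A probe set of DDR2 read the other way, at 138 ± 24 units in the layers and 525 ± 319 in whole muscle (SD, n = 4). ITGA1 was under the floor on every U133A array, whereas its U133B probe set read 365 ± 156 units in the layers and 1235 ± 695 in whole muscle (SD, n = 4). That probe set was tested only between the muscles (medial minus lateral 0.32 ± 0.86, adjusted p = 0.992). With so few genes tested, these counts describe the listed genes only.

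Markers of the cells and tissues that hold collagen were read in the same way. Between the layers 0 of 6 fibroblast markers were called on U133A, and their summed intensity was 83238.9 to 107556 on orbital and 78355.8 to 88251.6 on global arrays, which overlap. Of 5 tendon markers 3 were on U133A and 1 was tested, and their summed intensity was 2669.7 to 4389.3 on orbital, 1410.8 to 1590.7 on global and 3355.8 to 3885.6 on whole muscle arrays, so that the global arrays were the lowest; COMP was under the floor on every U133A array. Endothelial markers summed to 15298.4 to 16873.1 on orbital and 18461.7 to 24242.4 on global arrays with 0 of 6 called. Adipocyte markers summed to 1044.1 to 2134.8 and 3329.2 to 6583.3 with 0 of 1 called. That sum was mostly FABP4, which averaged 1464 units on orbital and 4802 on global arrays. PLIN1 (72 and 98) and ADIPOQ (54 and 57) averaged under the floor in both layers. On U133B no marker was called between the layers either. There the 3 fibroblast markers summed to 8423.4 to 9617.4 on orbital and 7838.6 to 7892.1 on global arrays, and the 2 endothelial markers to 11116.2 to 13426 and 12763.1 to 13384.1. The 1 adipocyte marker read 568.1 to 1688 and 2681.5 to 4706.2, and the 1 tendon marker, which was not tested, 532.4 to 665.7 and 5.1 to 106.8. The part of these markers, and of the ACTB ratio, in the collagen values between the layers was not tested.

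Against whole muscle on U133A, 1 higher and 1 lower of 6 fibroblast markers, 0 and 2 of 5 endothelial markers, 3 and 0 of 5 smooth muscle and pericyte markers, 0 and 1 of 2 Schwann cell markers and 0 and 2 of 5 skeletal muscle markers were called, where 18.6% of all probe sets were higher and 30.1% lower. The summed smooth muscle and pericyte markers were 34514.5 to 38956 in the layers and 16328.4 to 27329.5 in whole muscle, without overlap. Of these markers MYH11, called higher, averaged 610 units in whole muscle, under the filter level, and was tested only through the layers. On this array type the tendon, adipocyte and macrophage lists each had 1 tested marker and no call. On U133B few markers were tested, and several read otherwise than on U133A. The endothelial EMCN was higher in the layers (1.29 ± 0.20, adjusted p = 4.44e-04), as was TTN, the giant spring protein of muscle (1.38 ± 0.25, adjusted p = 0.00108), although TTN was lower on U133A (-0.60 ± 0.13, adjusted p = 0.00251). The smooth muscle marker TAGLN was lower (-0.91 ± 0.23, adjusted p = 0.00755), and so was the fibroblast proteoglycan DCN (-1.68 ± 0.36, adjusted p = 0.00309); EMCN, TAGLN and DCN were not called on U133A. These were the only marker calls on U133B, where 20.5% of all probe sets were higher and 22.3% lower, out of 3 fibroblast markers and 1 each of endothelial, smooth muscle and pericyte, Schwann cell, adipocyte and skeletal muscle markers tested. The summed smooth muscle and pericyte markers of U133B were 5286.1 to 6478.3 in the layers and 6952.5 to 11167.3 in whole muscle, the opposite order to U133A. The part of these markers, and of the ACTB and GAPDH ratios, in the collagen calls against whole muscle was not tested.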

How the data were processed

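The deposited values are linear intensities, 1 for each probe set on each array, scaled by the authors so that the mean after trimming 2% of values at either end was 1500.22 to 1500.67 on every array; this was read from the values, and the software that summarised the probes and any detection calls are not given in the sources used here. T7 polymerase served to amplify RNA of the layers, per the labels. Per the titles, arrays were grouped into 4 groups of 2 on each array type; all layer arrays and 4 of the 8 rectus arrays have a number in their title, and the rest were numbered in order of accession.

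Each array was rescaled to a common 2% trimmed mean, values under the pooled 20th percentile of the table were set to that percentile before log2 was taken. Control probe sets were left out, and a probe set was kept when these log2 values averaged at least the pooled median over the arrays of a comparison. U133A and U133B were analysed separately with limma 3.58.1 in R 4.3.3 (2 groups, moderated variances with an intensity trend, two-sided, Benjamini-Hochberg over the kept probe sets of a table, threshold 0.05). The code was tested on simulated data. Python 3.11.15, pandas 2.3.3 and matplotlib 3.10.9 made the summaries and figures.

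The collagens, gene lists, markers and tests were chosen with earlier results of these data known. The filter was first run on the mean of linear intensities and was changed to the mean of log2 values, the reading that gives the numbers of tested probe sets of earlier work on these tables, after the collagen results of the first form had been seen; the earlier form is kept as an alternative. Values on every array are given for the brightest kept probe set of 12 main collagens, for every called collagen probe set and, where fewer than 4 were called in a comparison and table, for the 4 with the smallest p. COL18A1, among the 12, had no kept probe set and is given by its range. Some others are named by their differences. Alternatives run were a floor at the 5th or 40th percentile, quantile normalization, no filter or a filter at the 75th percentile, all 4 groups fitted together, no intensity trend, array weights, the replicate number as a block for the layers, and each array left out in turn. No probe or transcript sequences were used here.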

Additional observations from a re-analysis of the deposited data

Results flagged for a closer look

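Among the 58 groups of 4 arrays tested with Dixon's ratio, the gap of the extreme array divided by the range of its group, 2 exceeded the 95% critical value, and chance alone flags about 1 group in 20. For COL1A1 202310_s_at, lateral rectus replicate 2 of U133A read 55646, while the other whole muscle arrays lay between 31413 and 33646 (ratio 0.880). For COL6A3 201438_at, medial rectus replicate 1 of U133A read 13826, while the other whole muscle arrays lay between 10266 and 10749.5 (ratio 0.845).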

How the results depend on the processing

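The number of collagen probe sets past the threshold was 0 between the layers of U133A except without global replicate 2, where it was 2 (range 0 to 2 over arrays left out); between the layers of U133B and between the muscles it was 0 under every alternative. Against whole muscle it was 12 to 23 on U133A and 8 to 11 on U133B over all alternatives, and 13 to 18 and 9 to 11 over arrays left out. Where an array is left out of a pair, the lone array is assumed to vary like the others. Between the layers of U133A the calls over all probe sets rose in those runs too, as given below. With the filter on the mean of linear intensities, the form used before its results were seen and replaced, the counts were 19 (6 higher, 13 lower) of 37 tested on U133A and 11 (6 higher, 5 lower) of 22 on U133B against whole muscle, and 0 elsewhere.

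The median difference of collagens depended on the settings. For layers minus whole muscle on U133B it was 0.19 as reported, 0.39 under quantile normalization, -0.0028 with the floor at the 40th percentile, -0.18 without a filter, 0.64 with the filter at the 75th percentile, 0.029 with the filter on linear intensities, and -0.23 to 0.42 over arrays left out. Over arrays left out it was 0.012 to 0.34 for orbital minus global on U133B, -0.19 to 0.075 for medial minus lateral on U133A and -0.16 to 0.14 on U133B. Of 694 comparisons of a named probe set with an alternative, 644 kept direction and side of the threshold, 47 lost and 2 gained a call, and 1 reversed: COL22A1 242326_at, medial minus lateral, at 0.40 without medial replicate 1 (range -1.95 to 0.40 over arrays left out). The cause was not tested.

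With the replicate block, the number of collagen calls between the layers was 0 on both array types. All probe sets called then numbered 92 on U133A in place of 39 and 26 on U133B in place of 2. Same-numbered layer arrays deviated together with r = 0.22 on U133A and 0.096 on U133B. With 2 arrays in a group the second pair mirrors the first and adds nothing to it. No label ties a number to an animal, so the numbers were taken as names only. Counts over all probe sets moved by more than 1.5 times elsewhere too: between the layers of U133A to 21 under quantile normalization, 0 without a filter, 12 without a trend and 68 to 144 over arrays left out, between the layers of U133B to 0 to 28, and between the muscles of U133A to 7 with the filter at the 75th percentile and 0 to 9 over arrays left out. Against whole muscle, the filter at the 75th percentile gave 2513 in place of 5132 calls on U133A and 2799 in place of 4510 on U133B, with fewer probe sets tested. The number of arrays, 2 in a group, limits the precision of every difference, and without detection calls dim probe sets are bounded only by the floor.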
